A study of Mus musculus with 12 samples.

Results

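The comparison described here set mouse embryonic fibroblasts that received an oncogenic RAS first and a hairpin against p53 second beside fibroblasts that received the oncogenic RAS alone. It used 6 of the 12 arrays, chosen by their titles. The 3 arrays of the first kind came from cells transduced with a viral vector for RASV12, a constitutively active RAS, and then with a viral vector for shp53, a short hairpin RNA against the mouse p53 mRNA. They are called RASV12-then-shp53 cells below. The 3 arrays of the second kind came from cells with the RASV12 vector only, called RASV12 cells. The other 6 arrays held cells with shp53 alone and cells that got shp53 before RASV12, with 3 arrays each, and they entered the fit so that all 4 groups shared an estimate of each gene's spread. The fibroblasts were primary connective tissue cells from E12.5-E13.5 embryos of C57BL/6 mice, and 100 ng of total RNA was labelled per array. The replicates were independent biological ones per the design text. Both groups carried RASV12, and all 4 groups carried at least 1 vector. The labels give neither the promoters of the vectors, nor the time between the 2 transductions, nor whether groups shared embryos, nor whether cells were pooled or cloned.

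Primary fibroblasts answer a strong RAS signal with senescence, a lasting arrest that is held by p53 through its target p21 and by the p16 protein through RB. Senescent cells enlarge, lose proteins of the proliferating nucleus such as lamin B1, and secrete cytokines, chemokines and matrix proteases, together called the senescence secretome. When p53 is taken away, rodent fibroblasts can divide in the presence of active RAS, so the comparison asks how cells with RASV12 alone differ from cells that got the hairpin after RASV12. Arrest itself was not measured on these arrays.

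Levels are given as the log2 processed signal of a gene's probe minus the 75th percentile of its array, in the order of replicates 1, 2 and 3, and differences are RASV12-then-shp53 minus RASV12 on the same log2 scale. Between 56.6% and 60.8% of spots were well above background on the 6 arrays, and 13938 autosomal named genes were tested with limma. Within each group, 1 array stood apart from a closer pair. RASV12 replicate 2 correlated across genes at 0.981 and 0.980 with replicates 1 and 3, which correlated at 0.996 with each other. RASV12-then-shp53 replicate 1 correlated at 0.973 and 0.972 with replicates 2 and 3, whose own correlation was 0.996. The 3 slides held 4 arrays each, 1 of every group, and arrays of the same replicate number shared a slide. Of the calls below, 5336 of 5368 had the same sign on all 3 slides. The calls were made from these same arrays, and for 5246 of them the groups did not overlap. That agreement is thus largely fixed by the calls and is no separate evidence. Each group had its own fixed position on the slides, so position and group cannot be told apart.

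Genes of the sex chromosomes were left out of the tests, but they bear on where the cells came from. The X-inactivation transcript Xist stood at -0.84, -0.78 and -1.41 in RASV12 cells and at -7.65, -8.25 and -8.17 in RASV12-then-shp53 cells, where no array was well above background. The Y-linked gene Eif2s3y stood at -8.03, -7.59 and -7.89 in RASV12 cells, with no array above background, and at 1.15, 1.01 and 1.17 in RASV12-then-shp53 cells. Ddx3y and Uty, also Y-linked, were above background on all 3 RASV12-then-shp53 arrays and on no RASV12 array. The 3 arrays with shp53 alone were like RASV12 cells in these genes, and the 3 with shp53 before RASV12 were like RASV12-then-shp53 cells. The RASV12 cells thus carried the marks of female cells and the RASV12-then-shp53 cells those of male cells. Differences below between the 2 groups cannot be told apart from differences between the embryos their cells came from. Whether the 2 groups with both vectors shared embryos is not given either, so differences between the orders of vectors carry the same limit.

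All 13 fibroblast markers tested were above background on all 6 arrays, among them the collagen genes Col1a1, Col1a2 and Col3a1. Their summed linear level, in units of the array's 75th percentile, ranged from 456 to 711 in RASV12 cells and from 484 to 813 in RASV12-then-shp53 cells. Of these markers 3 rose and 1 fell, 23.1% and 7.69%, beside 17.6% and 20.9% of all genes. Of 12 macrophage and leukocyte markers tested, 5 fell and none rose, 41.7% lower beside 20.9% of all genes. Of the 12, 3 fell when RASV12 replicate 1 or 2 or RASV12-then-shp53 replicate 2 or 3 was left out. Of the 5 with a probe above background on all 12 arrays, none was called, and after normexp correction none of the 12 was. Their sum ranged from 9.68 to 20.9 in RASV12 cells and from 6.14 to 9.24 in RASV12-then-shp53 cells. The pan-leukocyte gene Ptprc was above background on no array of either group. In RASV12-then-shp53 cells 7 of the 12 were above background on no array, Lyz2, Adgre1 and Aif1 among them, against 1 in RASV12 cells. Those 7 entered the test through another group, so falls among them follow in part from that entry. Tyrobp, an adaptor protein of myeloid cells, had levels of -2.34, -2.03 and -2.34 in RASV12 cells and was not well above background on any RASV12-then-shp53 array (limma adjusted p = 0.00373 for the fall). On bulk arrays fewer cells of a type and less RNA per cell cannot be told apart.

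Of the 13938 genes, 5368 differed at an adjusted p under 0.05 (limma with Benjamini-Hochberg adjustment), which is 38.5%. RASV12-then-shp53 cells were higher for 2449 genes, 17.6% of those tested, and lower for 2919, 20.9%. The 3 arrays of one group lay all above or all below those of the other for 50.8% of genes, higher for 23.3% and lower for 27.5%. The median difference over all genes was -0.06. At 2-fold or more, 1085 were higher and 1727 lower. For 501 of the lower and 76 of the higher genes the dimmer group was above background on no array, so only a bound on the fold could be given. Higher genes made up 45.6% of the calls, and 64.9% when arrays were scaled on their median, which moved the median gene to 0.21. With the closer pair of arrays in each group averaged to 1 value, 34.1% of the 1393 calls were higher, and after normexp background correction 783 genes were called.

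A gene entered the test if 1 group had it above background on all 3 arrays. Genes below background in RASV12-then-shp53 cells thus entered through a group in which they were high, and their fall follows in part from that entry. This touched 10 of the tested Hox genes, 5 prolactin, 4 stem cell associated and 3 secretome genes, and no p53 target, mitosis or DNA replication gene. Likewise the 76 higher genes above background on no RASV12 array entered through another group, and their rise follows in part from that entry. Among the 11761 genes with a probe above background on all 12 arrays, 19.6% were higher and 18.5% lower.

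The plot of list members called shows the share of each gene list that passed in either direction. The lists with the largest shares of higher members were those of DNA damage response, mitosis, senescent nucleus and DNA replication genes, followed by interferon-stimulated and antigen presentation genes. The largest shares of lower members were in the secretome, with 61.8%, and the p53 targets, with 51.5%. Among probes above background on all 12 arrays these shares were 53.8% and 51.5%. Prolactin genes are left out of the plot, since 8 of the 19 on the array did not pass the filter.

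**Figure D1:**
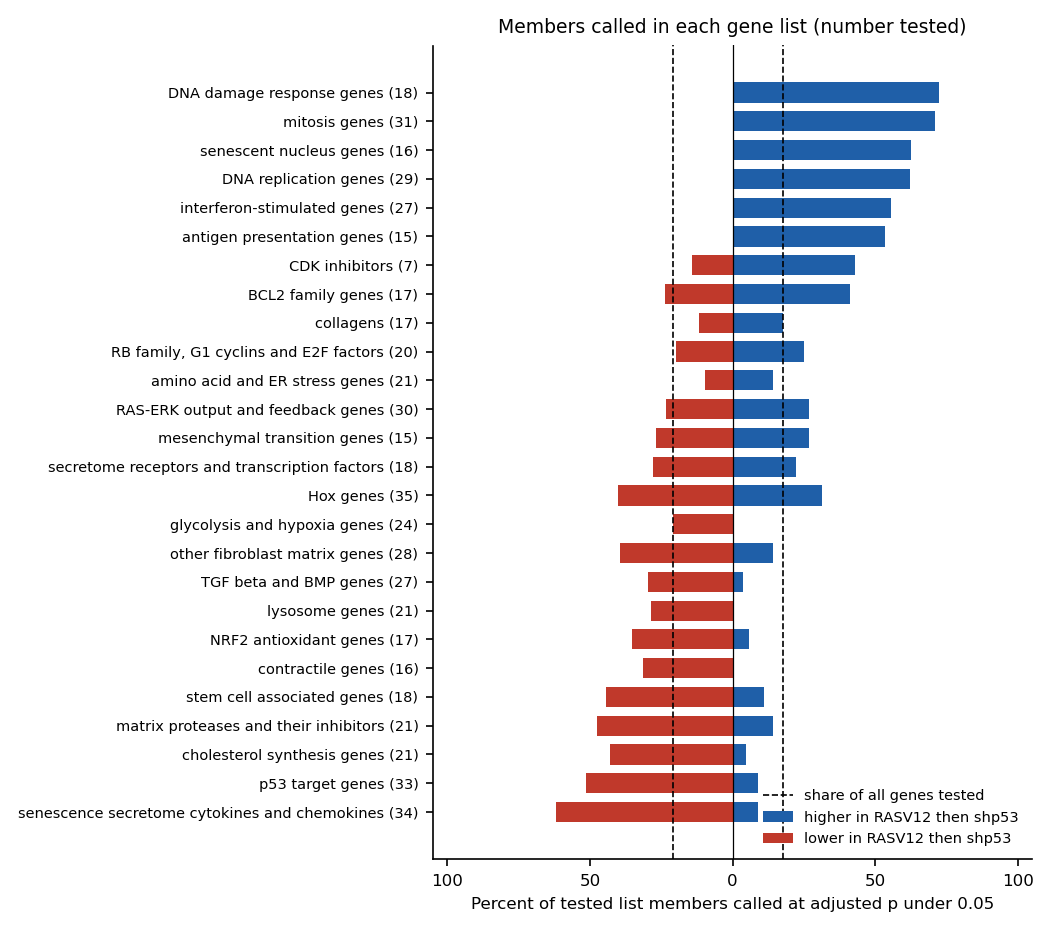
Percent of tested members of 26 gene lists called higher (right, blue) or lower (left, red) in RASV12-then-shp53 than in RASV12 cells at adjusted p under 0.05, with the number tested in brackets. Dashed lines mark the shares over all genes tested, 17.6% higher and 20.9% lower; mitosis genes reached 71.0% higher and secretome genes 61.8% lower.

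Trp53, the target of the hairpin, had levels of -0.35, -0.75 and -0.58 in RASV12 cells and -4.14, -4.01 and -3.83 in RASV12-then-shp53 cells. It was thus 10.8-fold lower in RASV12-then-shp53 cells (-3.43 ± 0.19 (SE), adjusted p = 1.04e-06), with no overlap between groups. The call was lost under normexp correction only (limma adjusted p = 0.197). Over the alternatives the difference ranged from -3.52 to -1.12, so the size of the fall depends on the processing. In the 2 groups that got shp53 alone or first, Trp53 stood at -3.22, -3.55 and -3.06 and at -3.98, -3.43 and -3.44. Neither relative of p53 passed the test, with differences of -0.22 ± 0.31 for Trp63 (adjusted p = 0.612) and -0.23 ± 0.22 for Trp73 (adjusted p = 0.422).

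Among genes that p53 binds and raises, falls outnumbered rises. Of 33 p53 targets tested, 17 fell and 3 rose, 51.5% and 9.09%, beside 20.9% and 17.6% of all genes. The median difference was -0.52 against -0.06 over all genes, while 9 fell after normexp correction and 8 with the closer pairs averaged. Cdkn1a encodes p21, the CDK inhibitor through which p53 stops the cell cycle. It went from 3.52, 3.82 and 3.64 to 2.52, 2.25 and 2.33, a 2.45-fold fall (-1.29 ± 0.16 (SE), adjusted p = 1.79e-04). The groups were separate, although p21 mRNA remained well above background. Mdm2, the ubiquitin ligase that destroys p53, fell 1.94-fold, from 5.54, 5.88 and 5.60 to 4.57, 4.71 and 4.88 (adjusted p = 4.97e-04). Ccng1, the p53-induced cyclin G1, fell 3.09-fold, from 4.22, 4.59 and 4.39 to 2.38, 3.02 and 2.93 (adjusted p = 9.70e-05). In all 3 genes every RASV12-then-shp53 array lay below every RASV12 array.

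Several other targets, some with roles in cell death, fell further. Perp, a membrane protein of desmosomes and of p53-dependent apoptosis, had levels of 4.23, 4.06 and 4.26 in RASV12 cells and -3.15, -3.27 and -3.08 in RASV12-then-shp53 cells, a 163-fold fall (-7.35 ± 0.34 (SE), adjusted p = 3.30e-07). Pmaip1, which encodes the BH3 protein Noxa, fell 6.96-fold, from 3.10, 3.70 and 3.21 to 0.30, 0.66 and 0.66 (adjusted p = 9.52e-04). The death receptor gene Fas fell 4.33-fold, from 1.66, 1.74 and 1.70 to 0.10, -0.63 and -0.71 (adjusted p = 3.36e-05). Ephx1, an epoxide hydrolase, fell 3.67-fold, from 4.93, 4.73 and 4.97 to 3.52, 2.74 and 2.74 (adjusted p = 9.17e-05). Perp and Fas were also lower than in cells that got shp53 first, with differences of -2.89 ± 0.34 (adjusted p = 3.15e-04) and -1.45 ± 0.20 (adjusted p = 8.63e-04). For Cdkn1a and Ccng1 the difference between the orders of vectors did not pass, at adjusted p = 0.0871 and 0.607.

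The start of Cdkn1a is shown because p21 is the textbook target of p53. RefSeq (GRCm38.p6) lists 2 starts for it, and the sequence runs from 250 bases before to 20 bases after 1 of them, chr17:29090729-29090998 on the plus strand. Capitals mark the letters that matched a p53 element, searched as 2 p53 half-sites with 0 to 13 bases between them, which overlapped no other motif searched here. The window at the other start held no match. The marked stretch is followed directly by tgacatgttc, which misses the searched half-site at its first base. The capitals thus show a match of letters, and which of these bases p53 binds was not tested.
Cdkn1a: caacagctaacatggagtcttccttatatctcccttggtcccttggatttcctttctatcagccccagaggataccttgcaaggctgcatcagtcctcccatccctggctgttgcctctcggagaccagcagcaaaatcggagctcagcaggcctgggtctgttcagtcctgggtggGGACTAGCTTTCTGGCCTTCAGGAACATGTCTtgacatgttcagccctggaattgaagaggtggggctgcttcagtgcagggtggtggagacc
Such a match occurred in 0.0362% of the first listed windows of 11053 tested genes, all 300 bases long, and in 1 of the 13 windows found for the 17 targets that fell. A window without a match says only that these letters are not in it.

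**Figure D2:**
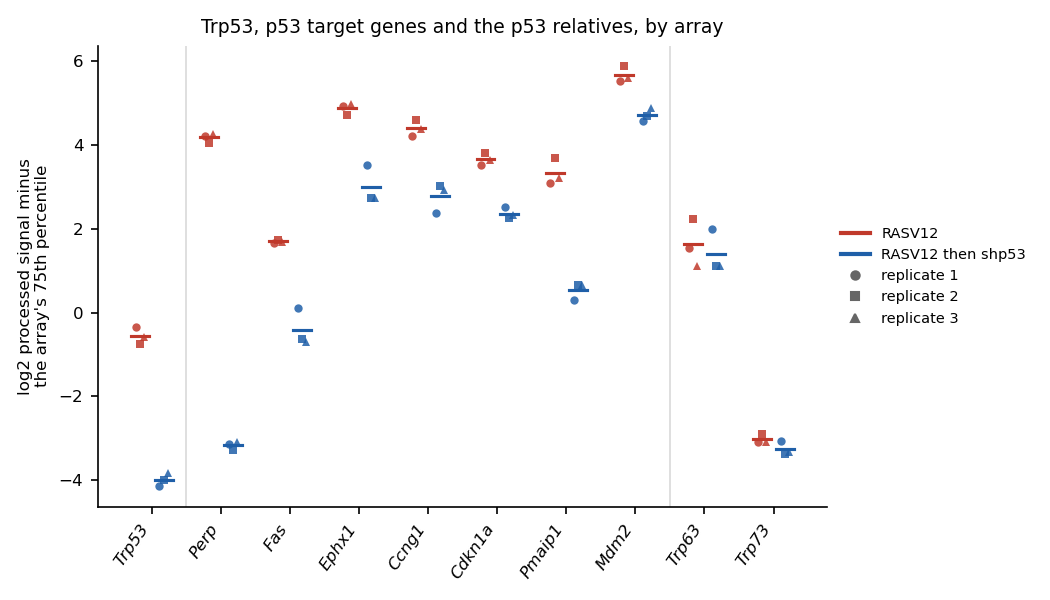
Level on each array (log2 processed signal minus the array's 75th percentile, vertical axis) of Trp53, 7 p53 targets and the relatives Trp63 and Trp73, with RASV12 cells in red and RASV12-then-shp53 cells in blue. Marker shapes give the replicate and lines the mean of 3; the groups are separate for Trp53 and the 7 targets and overlap for Trp63 and Trp73.

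The CDK inhibitors other than p21 did not show a fall that passed. Cdkn2a, the locus of p16 and ARF, had levels of 5.23, 5.72 and 5.38 in RASV12 cells and 6.52, 5.74 and 5.67 in RASV12-then-shp53 cells, and the difference of 0.53 ± 0.26 did not pass (adjusted p = 0.128). Cdkn2b, which encodes p15, did not pass either (-0.84 ± 0.32 (SE), adjusted p = 0.0640). Without RASV12-then-shp53 replicate 1, Cdkn2b passed with -1.12 (adjusted p = 0.0192). Of 7 CDK inhibitors, 3 rose and only Cdkn1a fell, 42.9% and 14.3%, beside 17.6% and 20.9% of all genes. In contrast 3 fell without RASV12-then-shp53 replicate 1. Cdkn1b, which encodes p27, rose 4.46-fold, from -0.32, -0.24 and -0.41 to 2.49, 1.52 and 1.49 (adjusted p = 2.48e-04). Cdkn2c, which encodes p18, rose 3.42-fold, and Cdkn2d, which encodes p19, rose 1.92-fold (adjusted p = 5.36e-05 and 0.00564).

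Among RB proteins, G1 cyclins and E2F factors, 5 of 20 tested genes rose and 4 fell, shares close to those over all genes. Rb1, the retinoblastoma gene, fell 2.23-fold, from -0.03, 0.44 and 0.04 to -0.68, -1.16 and -1.18 (adjusted p = 0.00269). Both D cyclin genes named here, whose products open G1, fell. Ccnd1 fell by 1.11 ± 0.17 and Ccnd2 by 1.20 ± 0.18 (adjusted p = 6.95e-04 and 5.89e-04). E2f2, a factor that drives S-phase genes, rose from -4.52, -4.19 and -4.55 to -1.34, -0.48 and -0.33 (3.70 ± 0.28 (SE), adjusted p = 7.98e-06). E2f1 rose 2.15-fold (adjusted p = 0.00300).

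Genes of division were higher in RASV12-then-shp53 cells. Of 31 mitosis genes tested, 22 rose and none fell, 71.0% higher beside 17.6% of all genes, with a median difference of 1.95. For 26 every RASV12-then-shp53 array lay above every RASV12 array, which held for 23.3% of all genes. Cdc25b, the phosphatase that starts mitosis, went from -1.17, -1.56 and -1.07 to 0.79, 1.69 and 1.78, a 6.47-fold rise (2.69 ± 0.30 (SE), adjusted p = 1.01e-04). Bub1b, a spindle checkpoint kinase, rose 6.44-fold, from -2.24, -2.76 and -2.28 to -0.61, 0.70 and 0.68 (adjusted p = 9.41e-04). Nek2, a kinase of the centrosome, rose 5.77-fold, from -3.14, -3.18 and -2.95 to -1.93, 0.11 and 0.14 (adjusted p = 0.00629). In each, RASV12-then-shp53 replicate 1 was the lowest of its group and still above all 3 RASV12 arrays. Cenpa, Tpx2, Cdc25c, Cenpe and Aurka, which build the kinetochore and spindle or trigger entry, rose between 3.87-fold and 4.94-fold. Aurka and Cenpe were not called without RASV12-then-shp53 replicate 2 or 3, with adjusted p from 0.0533 to 0.0567, nor Cdc25c without replicate 3 (adjusted p = 0.0506).

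The genes most used as markers of dividing cells passed narrowly. Ccnb1, the mitotic cyclin, had levels of 0.82, 0.15 and 0.95 in RASV12 cells and 1.13, 3.32 and 3.37 in RASV12-then-shp53 cells (1.96 ± 0.65 (SE), adjusted p = 0.0364). Its kinase partner Cdk1 went from 1.20, 0.53 and 1.24 to 1.92, 3.27 and 3.32 (1.84 ± 0.56 (SE), adjusted p = 0.0246). Mki67, the Ki-67 antigen, went from 1.27, 0.74 and 1.10 to 1.80, 3.39 and 3.31 (1.80 ± 0.64 (SE), adjusted p = 0.0469). Replicate 1 of RASV12-then-shp53 cells lay near the RASV12 arrays in all 3 genes, while replicates 2 and 3 lay well above. Each lost its call when RASV12 replicate 1 or 2, or RASV12-then-shp53 replicate 2 or 3, was left out, with adjusted p from 0.0512 to 0.143, and Ccnb1 and Mki67 also did without RASV12 replicate 3. The number of mitosis genes called was 13, 9 and 14 without RASV12 replicates 1, 2 and 3, and 30, 6 and 5 without RASV12-then-shp53 replicates 1, 2 and 3. With the closer pair of each group averaged it was 2, and after normexp correction 5. The median difference of the list was 0.60, 2.90 and 2.43 within slides 1, 2 and 3, where the lowest value came from the slide of RASV12-then-shp53 replicate 1.

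DNA replication genes moved alike. Of 29 tested, 18 rose and none fell, which is 62.1% beside 17.6% of all genes, with a median difference of 1.26. The count was 4 after normexp correction and 2 with the closer pairs averaged. Prim1, the primase subunit that starts each new strand, went from 0.49, 0.20 and 0.57 to 2.40, 3.68 and 3.73, a 7.20-fold rise (adjusted p = 4.45e-04). Cdt1, which licenses origins, rose 4.92-fold, from 1.69, 1.42 and 1.83 to 3.35, 4.23 and 4.26 (adjusted p = 9.60e-05). Lig1, the replicative ligase, rose 2.47-fold, Rfc4, of the clamp loader, 2.53-fold and Cdc45, of the replicative helicase, 3.47-fold. Without single arrays 8 to 24 replication genes were called, the lowest without RASV12-then-shp53 replicate 3 and the highest without its replicate 1. The count was 12 without RASV12 replicate 1, and 9 without RASV12 replicate 2 or RASV12-then-shp53 replicate 2.

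Repair and chromatin genes rose as well. Of 18 DNA damage response genes tested, 13 rose and none fell, which is 72.2% beside 17.6% of all genes, with a median of 1.54. After normexp correction 3 were called, and with the closer pairs averaged none was. Exo1, an exonuclease of mismatch repair, rose 4.22-fold (adjusted p = 0.0114), and Bard1 and the helicase gene Blm rose 3.65-fold and 3.17-fold. Of 16 genes of the senescent nucleus list, 10 rose and none fell, 62.5%, with 1 called after normexp correction and 2 with the closer pairs averaged. Hmgb2, a chromatin protein that is lost on entry into senescence, went from 2.43, 2.34 and 2.52 to 4.18, 5.36 and 5.38, a 5.84-fold rise (2.55 ± 0.39 (SE), adjusted p = 7.24e-04). Cbx5, Hmgb1, H2az1 and Tmpo rose by 1.36, 0.98, 1.25 and 1.68. Lmnb1, lamin B1, went from 0.37, 0.00 and 0.48 to 0.89, 2.28 and 1.88, which did not pass (1.40 ± 0.59 (SE), adjusted p = 0.0829) but did without RASV12-then-shp53 replicate 1 (1.80, adjusted p = 0.0435). Hmga2, a component of senescence foci, did not pass (0.53 ± 0.26 (SE), adjusted p = 0.131). The damage response count ranged from 4, without RASV12 replicate 2 or RASV12-then-shp53 replicate 2 or 3, to 17 without RASV12-then-shp53 replicate 1, and was 8 and 7 without RASV12 replicates 1 and 3. The nucleus count was 6 without RASV12 replicate 2 or RASV12-then-shp53 replicate 2.

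**Figure D3:**
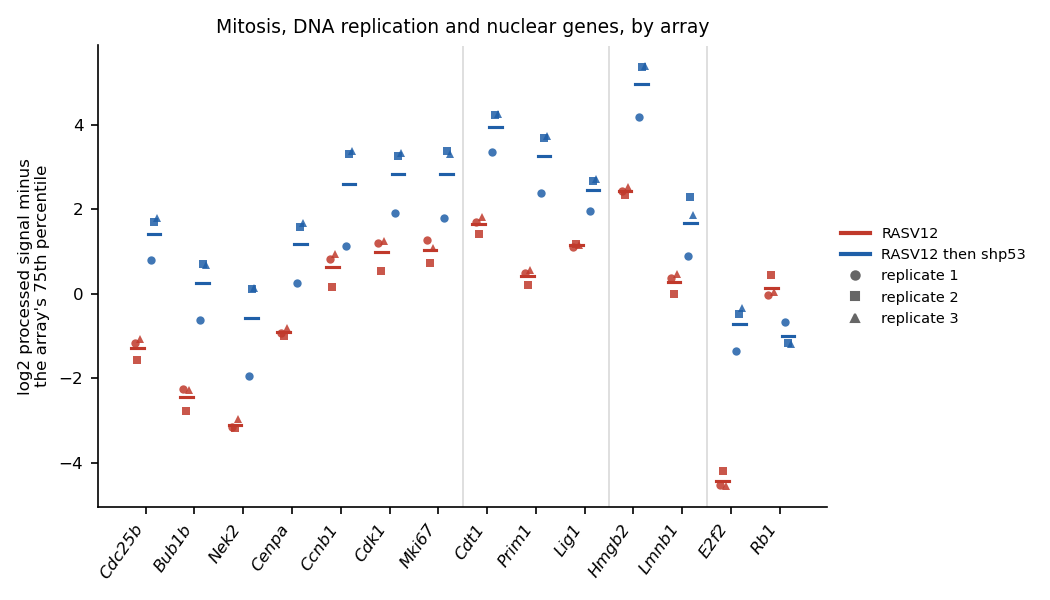
Level on each array (log2 processed signal minus the array's 75th percentile, vertical axis) of mitosis, DNA replication, nuclear and G1 genes, separated by grey lines, in RASV12 cells (red) and RASV12-then-shp53 cells (blue), with lines at the mean of 3 replicates. Replicate 1 of RASV12-then-shp53 cells (circles) lies between its own replicates 2 and 3 and the RASV12 arrays in the mitosis genes, as in Ccnb1 at 1.13 against 3.32 and 3.37.

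Promoter windows of some of these genes were searched for letters known from their class. Mitotic genes are known for the CHR element, bound by the MuvB complex that p53 and p21 turn into a repressor, and for CCAAT boxes. Replication genes are known for E2F sites. Cdk1 is shown as a member of the named set, and Ccnb2 and Mcm6 were chosen after their values were seen. The sequences run from 250 bases before to 20 after the RefSeq start (GRCm38.p6), at chr10:69352893-69353162 on the minus strand, at chr9:70421535-70421804 on the minus strand and at chr1:128359686-128359955 on the minus strand. Capitals mark TTTGAA (CHR) and CCAAT on either strand in Cdk1 and Ccnb2, and E2F sites (TTTCCCGC, TTTCGCGC, TTTGCCGC or TTTGGCGC, on either strand) in Mcm6, where neighbouring E2F matches overlap.
Cdk1: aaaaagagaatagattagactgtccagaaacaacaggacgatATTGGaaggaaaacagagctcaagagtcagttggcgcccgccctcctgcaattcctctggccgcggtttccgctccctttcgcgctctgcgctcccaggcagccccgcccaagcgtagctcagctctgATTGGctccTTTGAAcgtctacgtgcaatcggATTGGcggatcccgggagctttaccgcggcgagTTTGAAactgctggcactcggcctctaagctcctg
Ccnb2: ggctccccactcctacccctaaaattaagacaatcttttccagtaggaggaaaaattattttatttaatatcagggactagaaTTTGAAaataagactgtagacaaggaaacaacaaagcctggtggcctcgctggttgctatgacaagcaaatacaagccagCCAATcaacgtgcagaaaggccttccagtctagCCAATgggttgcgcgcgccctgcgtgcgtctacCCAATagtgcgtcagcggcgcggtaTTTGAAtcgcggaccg
Mcm6: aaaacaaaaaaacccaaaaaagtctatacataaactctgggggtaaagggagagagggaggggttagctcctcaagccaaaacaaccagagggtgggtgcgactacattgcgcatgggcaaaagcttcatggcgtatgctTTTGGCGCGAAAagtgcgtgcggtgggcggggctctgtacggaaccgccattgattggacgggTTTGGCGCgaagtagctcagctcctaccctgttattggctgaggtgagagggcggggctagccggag
Cdk1 and Ccnb2 hold 2 CHR matches and 3 CCAAT boxes each. Of the 22 mitosis genes that rose, 18 had a 300-base window, and 11 of these, 61.1%, held a CHR and 16, 88.9%, a CCAAT box. The shares among first windows of 11053 tested genes were 12.2% and 38.3%. Of 16 windows for the replication genes that rose, 7, or 43.8%, held an E2F site, against 3.77% of tested genes. Ccnb2 went from 0.99, 0.71 and 1.17 to 1.35, 3.43 and 3.60 (1.84 ± 0.63 (SE), adjusted p = 0.0407) and kept its call only when RASV12-then-shp53 replicate 1 was the array left out. Mcm6, a subunit of the helicase, went from 3.36, 2.69 and 3.48 to 4.11, 5.09 and 5.24 (1.64 ± 0.36 (SE), adjusted p = 0.00568).

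The secretome was lower in RASV12-then-shp53 cells. Of 34 cytokines, chemokines and growth factors tested, 21 fell and 3 rose, 61.8% and 8.82%, beside 20.9% and 17.6% of all genes. The median difference was -1.67, and 8 fell after normexp correction and 12 with the closer pairs averaged. Of the 26 with a probe above background on all 12 arrays 14 fell. Among ligands of the neutrophil receptor CXCR2, Cxcl5 went from 6.25, 6.44 and 6.24 to -3.08, -1.86 and -1.53, a 354-fold fall (-8.47 ± 0.42 (SE), adjusted p = 4.53e-07). Cxcl3 went from 0.09, -0.10 and 0.26 to a signal not well above background, a fall of at least 67.2-fold (adjusted p = 4.60e-07). Cxcl1 went from 4.00, 4.05 and 3.92 to -0.11, -0.77 and -0.69, a 22.8-fold fall (adjusted p = 1.81e-04). RASV12 arrays lay close together in all 3 genes, and no RASV12-then-shp53 array came near them. After normexp correction Cxcl3 was not called, while Cxcl1 and Cxcl5 were.

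The interleukins at the head of the secretome fell likewise. Il1a, the interleukin that drives the other factors, stood at -0.36, -1.91 and -0.49 in RASV12 cells and was above background on no RASV12-then-shp53 array, a fall of at least 33.6-fold (adjusted p = 6.91e-07). Il6 went from 4.70, 4.08 and 4.64 to -1.34, -0.22 and -0.24, a 33.6-fold fall (-5.07 ± 0.62 (SE), adjusted p = 1.84e-04). The IGF-binding proteins Igfbp2 and Igfbp7 fell 33.1-fold and 11.4-fold (adjusted p = 1.23e-05 and 7.32e-07). The platelet-type chemokines Ppbp and Pf4, outside the list, were among the 12 lowest of all genes. Ppbp stood at 2.65, 2.53 and 2.91 in RASV12 cells and fell by at least 412-fold, and Pf4 stood at 0.24, 0.33 and 0.42 and fell by at least 79.9-fold. After normexp correction Il1a, Igfbp2, Igfbp7 and Pf4 were not called, while Il6 and Ppbp were. The macrophage markers above fell in the same comparison, and their part in these chemokine differences was not tested.

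Part of the secretome differed between the 2 groups with both vectors. In that comparison the order of the vectors and the source of the cells cannot be told apart. In cells that received shp53 first, Cxcl1 stood at 4.21, 3.12 and 2.86, and the difference, RASV12-first minus shp53-first, was -3.92 ± 0.55 (adjusted p = 9.71e-04). Il6 was at 3.89, 3.30 and 3.21 there, with an order difference of -4.07 ± 0.62 (adjusted p = 0.00160). Cxcl5 was at 3.21, 2.30 and 2.07, with an order difference of -4.68 ± 0.42 (adjusted p = 5.09e-05). Between the 2 orders, these 3 genes were the lower where RASV12 came first. Il1a and Ppbp showed no order difference that passed (adjusted p = 0.982 and 0.635), and neither was above background on any array of either order.

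The 3 secretome members that rose included 2 chemokines that interferon induces. Ccl5 stood at -3.09, 2.76 and -2.80 in RASV12 cells and 6.11, 6.31 and 6.36 in RASV12-then-shp53 cells (7.30 ± 1.19 (SE), adjusted p = 0.00107), the highest difference among the 12 highest genes. Cxcl10 stood at -2.61, 3.27 and -2.53 and 4.51, 5.36 and 5.29 (5.68 ± 1.27 (SE), adjusted p = 0.00601). RASV12 replicate 2 was far above its own replicates in both and still below every RASV12-then-shp53 array.

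**Figure D4:**
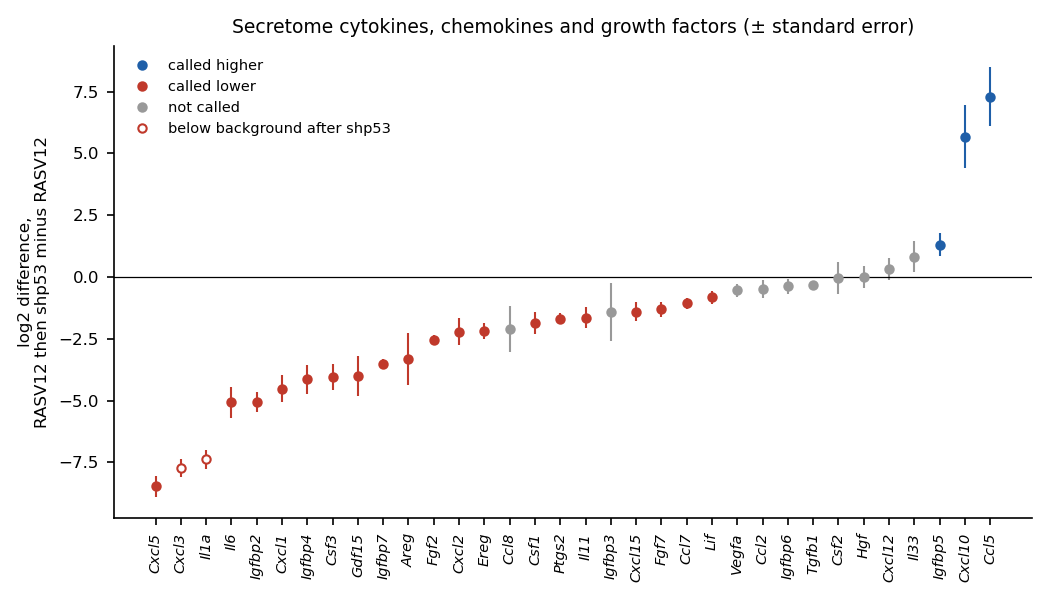
Difference (RASV12-then-shp53 minus RASV12, log2, vertical axis, ± standard error from limma) for the 34 tested secretome members, ordered by size. Red members were called lower, blue higher and grey in neither direction, and open circles were above background on no RASV12-then-shp53 array; 21 lie in red from Cxcl5 at -8.47 upward, and Cxcl10 and Ccl5 lie at 5.68 and 7.30.

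Promoters of the CXC chemokines Cxcl1 and Cxcl3, which fell, and of Cxcl10, which rose, are set side by side, because both kinds are classical targets of NF-kappaB. The sequences run from 250 bases before to 20 after the RefSeq start (GRCm38.p6), at chr5:90890995-90891264 on the plus strand, at chr5:90785851-90786120 on the plus strand and at chr5:92348870-92349139 on the minus strand. Capitals mark an NF-kappaB site on either strand in each, and in Cxcl10 also an interferon-stimulated response element, searched on both strands. In Cxcl10 the 2 NF-kappaB matches overlap.
Cxcl1: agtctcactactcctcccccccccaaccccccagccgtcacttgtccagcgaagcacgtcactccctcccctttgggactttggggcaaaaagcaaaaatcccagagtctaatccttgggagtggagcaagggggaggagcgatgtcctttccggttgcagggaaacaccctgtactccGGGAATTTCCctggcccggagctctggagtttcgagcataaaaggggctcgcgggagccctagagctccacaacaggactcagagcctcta
Cxcl3: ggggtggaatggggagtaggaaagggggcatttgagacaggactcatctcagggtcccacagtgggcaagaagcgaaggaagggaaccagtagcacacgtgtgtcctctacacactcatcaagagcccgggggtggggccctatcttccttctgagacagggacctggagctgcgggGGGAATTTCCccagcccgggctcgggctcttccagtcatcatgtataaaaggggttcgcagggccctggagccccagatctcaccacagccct
Cxcl10: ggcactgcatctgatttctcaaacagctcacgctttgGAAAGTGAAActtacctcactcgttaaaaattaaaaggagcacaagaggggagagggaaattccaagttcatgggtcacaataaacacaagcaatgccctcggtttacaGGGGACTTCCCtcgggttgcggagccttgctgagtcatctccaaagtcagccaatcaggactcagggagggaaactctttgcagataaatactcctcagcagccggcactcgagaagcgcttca
NF-kappaB letters were present in 5 of 17 windows of the secretome genes that fell, 29.4%, and in 6.74% of first windows of tested genes. Lists that rose held them too, in 3 of 12 windows of interferon-stimulated genes, 25.0%, and 2 of 7 of antigen presentation genes, 28.6%. No window of the mitosis or replication genes that rose, or of the p53 targets that fell, held them. The interferon element was present in 6 of 12 windows of the interferon-stimulated genes that rose, and in 3.03% of tested genes.

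Of 18 receptors and transcription factors around the secretome tested, 4 rose and 5 fell, 22.2% and 27.8%, which is near the 17.6% and 20.9% of all genes. After normexp correction none rose and 1 fell, as with the closer pairs averaged. Cebpd, a C/EBP factor of the acute phase, went from 5.99, 5.93 and 5.99 to 3.15, 3.69 and 3.85, a 5.30-fold fall (-2.41 ± 0.36 (SE), adjusted p = 6.55e-04). Nfkbiz, an NF-kappaB cofactor for Il6, Stat3 and the TNF receptor gene Tnfrsf1b fell by 1.05, 0.83 and 1.66. Tnfaip3, the NF-kappaB inhibitor A20, rose by 0.72 ± 0.16 (adjusted p = 0.00609). Among 21 matrix proteases and inhibitors, 10 fell and 3 rose, 47.6% and 14.3%, and 6 fell with the closer pairs averaged. Among them were inhibitors of plasminogen activation. Serpinb2, or PAI-2, went from 2.89, 3.02 and 3.05 to -3.65, -1.74 and -1.85, a 42.3-fold fall (-5.40 ± 0.56 (SE), adjusted p = 6.43e-05). Serpine2 fell 16.1-fold (adjusted p = 5.84e-06). Plat, the tissue plasminogen activator that they inhibit, rose 2.94-fold, from -0.12, 0.16 and -0.19 to 1.88, 1.20 and 1.45 (adjusted p = 3.75e-04). Mmp3, stromelysin, did not pass (1.20 ± 0.50 (SE), adjusted p = 0.0817).

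Interferon-stimulated genes were higher on RASV12-then-shp53 arrays than on 2 of the 3 RASV12 arrays. Of 27 tested, 15 rose and none fell, 55.6% higher beside 17.6% of all genes, with a median of 2.21. The groups were separate and higher for only 8, which held for 23.3% of all genes. They were separate and lower for 2, which held for 27.5% of all genes. The list's median level was -0.90, 2.54 and -0.67 on the RASV12 arrays and 1.81, 2.35 and 2.41 on the RASV12-then-shp53 arrays, so RASV12 replicate 2 lay above all 3 arrays of the other group. Irf7, the master factor of the interferon response, went from -4.16, -0.28 and -4.15 to 0.63, 0.60 and 0.87 (3.57 ± 0.85 (SE), adjusted p = 0.00831). Stat2 and Irf9, partners in the interferon-activated complex, went from 0.56, 3.20 and 0.65 to 3.64, 3.65 and 3.76 and from 0.89, 2.37 and 0.91 to 2.56, 2.69 and 2.76. Ifit2 and Irf1 rose by 0.98 and 0.91. Without RASV12 replicate 2, 24 genes of the list were called, and without RASV12 replicate 1 or 3 only 6. After normexp correction 2 were called, and with the closer pairs averaged none. The list's median difference was 3.08, -0.05 and 3.22 within slides 1, 2 and 3, and with the slide as a block 11 genes were called. Without RASV12-then-shp53 replicates 1, 2 and 3 the counts were 9, 7 and 8.

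Antigen presentation genes, many of them induced by interferon, were higher too. Of 15 tested, 8 rose and none fell, 53.3% beside 17.6% of all genes, with 3 called after normexp correction and 2 with the closer pairs averaged. Psmb9, a subunit of the immunoproteasome, went from -2.82, -1.08 and -2.69 to 3.20, 2.57 and 2.71, a 32.5-fold rise (5.02 ± 0.62 (SE), adjusted p = 2.04e-04). H2-K1 and H2-D1, the classical MHC class I genes, rose 5.42-fold and 3.74-fold, and probes for these near-identical genes may read both. Tap1, the peptide transporter, rose 5.73-fold, from -3.48, -2.51 and -3.42 to -0.45, -0.91 and -0.49 (adjusted p = 5.96e-05), and Psmb8 rose 6.14-fold. In these 5 genes every RASV12-then-shp53 array lay above RASV12 replicate 2 too. Without RASV12 replicate 1 or 3, 5 genes of the list were called.

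Both groups carried RASV12, and the RAS output list split. Of 30 genes of ERK output and feedback tested, 8 rose and 7 fell, 26.7% and 23.3%, beside 17.6% and 20.9% of all genes. With arrays scaled on their median 12 rose and 6 fell, and after normexp correction 1 rose and 4 fell. Hras went from 2.63, 2.36 and 2.84 to 0.79, 1.47 and 1.64, a 2.47-fold fall (-1.31 ± 0.25 (SE), adjusted p = 0.00283). Whether its probe reads the transduced RAS is not given in the sources used here. Nras did not pass (0.45 ± 0.18 (SE), adjusted p = 0.0737). Without RASV12-then-shp53 replicate 1 Nras passed with 0.66 (adjusted p = 0.00494). Dusp6, the ERK phosphatase that reports ERK activity, went from 3.99, 4.34 and 4.10 to 5.39, 4.94 and 4.86, a rise of 0.92 ± 0.27 (adjusted p = 0.0209). This call was lost without RASV12 replicate 1 or 3 or RASV12-then-shp53 replicate 1 (adjusted p = 0.0715, 0.0596 and 0.0586). The EGF receptor ligands Ereg and Hbegf fell 4.54-fold and 2.08-fold, the ephrin receptor Epha2 7.57-fold and Dusp1 3.19-fold. Fosb, of the AP-1 family, rose by 0.86.

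The matrix differed gene by gene. Of 28 matrix genes other than collagens tested, 11 fell and 4 rose, 39.3% and 14.3%, beside 20.9% and 17.6% of all genes. With arrays scaled on their median 7 fell and 8 rose, so the balance of this list depends on the scaling, and after normexp correction 5 fell and none rose. Of 17 collagens 3 rose and 2 fell, 17.6% and 11.8%, which is no more than among all genes, and 7 rose and 1 fell with median scaling. Mfap5, of the microfibrils, went from 3.39, 2.77 and 3.45 to -1.14, -2.60 and -2.69, a 40.7-fold fall (adjusted p = 3.85e-06). Lox, which cross-links collagen and elastin, fell 9.92-fold, from 2.31, 2.91 and 2.24 to -0.47, -0.95 and -1.06 (adjusted p = 4.80e-06). Efemp1 fell 8.43-fold and Vcan, versican, 2.34-fold. Thbs2, thrombospondin 2, and the collagen chain Col6a2 rose 6.02-fold and 8.96-fold, while Col8a1 fell 3.10-fold. Mgp, the matrix Gla protein that inhibits calcification, was among the 12 lowest genes, at 4.75, 6.09 and 4.96 in RASV12 cells and -1.69, -4.75 and -4.23 in RASV12-then-shp53 cells (-8.82 ± 0.66 (SE), adjusted p = 7.17e-06). The CCN protein Ccn5 fell by at least 118-fold. Without RASV12 replicate 1 or 3, 1 collagen was called higher, and without RASV12 replicate 2, 5 were.

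Of 27 TGF beta and BMP genes tested, 8 fell and 1 rose, 29.6% and 3.70%, beside 20.9% and 17.6% of all genes. With the closer pairs averaged 5 fell. Bmp4, a ligand that patterns limb and trunk mesenchyme, stood at 1.16, 1.59 and 1.19 in RASV12 cells and was above background on no RASV12-then-shp53 array, a fall of at least 158-fold (adjusted p = 7.32e-07). The joint ligand Gdf6 fell by at least 22.0-fold. Smad6, the inhibitory SMAD that BMP signals induce, fell 12.7-fold, from -0.57, -0.46 and -0.43 to -4.52, -3.98 and -3.97 (adjusted p = 2.25e-07). Grem1, a secreted BMP antagonist, fell 4.05-fold and Ltbp2, a matrix protein related to TGF beta carriers, 15.0-fold. Bmp4 was at 1.97, 0.22 and 0.08 in cells with shp53 first, and the order difference was -7.64 ± 0.44 (adjusted p = 2.02e-06). That difference uses RASV12-then-shp53 signals not above background, so its size is uncertain. Among mesenchymal transition genes, 4 of 15 rose and 4 fell, 26.7% each, near the shares of all genes, and after normexp correction 3 fell and none rose. Foxc2, a mesenchymal forkhead factor, fell 26.8-fold, S100a4 4.00-fold and Snai1, Snail, 2.20-fold. Of the 4 that rose, Zeb1, a repressor of epithelial genes, was the only one still called without RASV12 replicate 1 or 3 or RASV12-then-shp53 replicate 2 or 3, and it and Prrx1 were without RASV12-then-shp53 replicate 1.

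Hox genes record a cell's place along the body and limb axes, and the direction of their differences varied with cluster and number. Of 35 tested, 11 rose and 14 fell, 31.4% and 40%, beside 17.6% and 20.9% of all genes. All 10 tested genes numbered 10 to 13, of the HoxA, HoxC and HoxD clusters, fell. For 9 of these, all but Hoxc10, no RASV12-then-shp53 array was above background. Such genes entered the test through a group in which they were high, so their number is not evidence on position. Hoxa2, Hoxa5, Hoxa9 and Hoxd9 fell too, with differences of -1.61, -1.85, -1.12 and -3.72. Hoxd9 was also above background on no RASV12-then-shp53 array, and its fall was at least 4.43-fold. No tested HoxA gene was called higher. Hoxa11, a gene of the limb's middle segment, stood at 0.91, 0.85 and 0.88 in RASV12 cells and fell by at least 117-fold (adjusted p = 1.84e-07). Hoxa10 and Hoxd11 fell by at least 25.3-fold and 25.1-fold. All 8 tested HoxB genes rose, by 0.76 to 1.80, with Hoxb5 going from -1.13, -1.05 and -1.13 to 0.45, 0.50 and 0.44 (adjusted p = 5.34e-06). After normexp correction 4 Hox genes were called higher and 1 lower. Of the 23 with a probe above background on all 12 arrays 10 rose and 3 fell.

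The cells that got shp53 first differed from RASV12-then-shp53 cells in these genes. Hoxa11 stood at 1.38, 0.27 and 0.10 in cells with shp53 first and at -0.43, 0.75 and -0.47 in cells with shp53 alone, and the order difference was -8.57 ± 0.38 (adjusted p = 3.67e-07). Hoxa10 had an order difference of -6.72 ± 0.35 (adjusted p = 9.18e-07). Both order differences use RASV12-then-shp53 signals not above background, so their size is uncertain. Hoxd13 and Hoxc9 were chosen after their values were seen. Hoxd13 stood at 0.32, 0.40 and 0.17 in RASV12 cells, at -2.54, -5.66 and -5.09 with shp53 first, and above background on no RASV12-then-shp53 array. Hoxc9, a thoracic gene, rose from 0.85, 0.59 and 0.87 to 3.10, 3.55 and 3.48 and stood at -0.08, -0.78 and -1.02 with shp53 first, an order difference of 4.00 ± 0.25 (adjusted p = 3.70e-06).

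**Figure D5:**
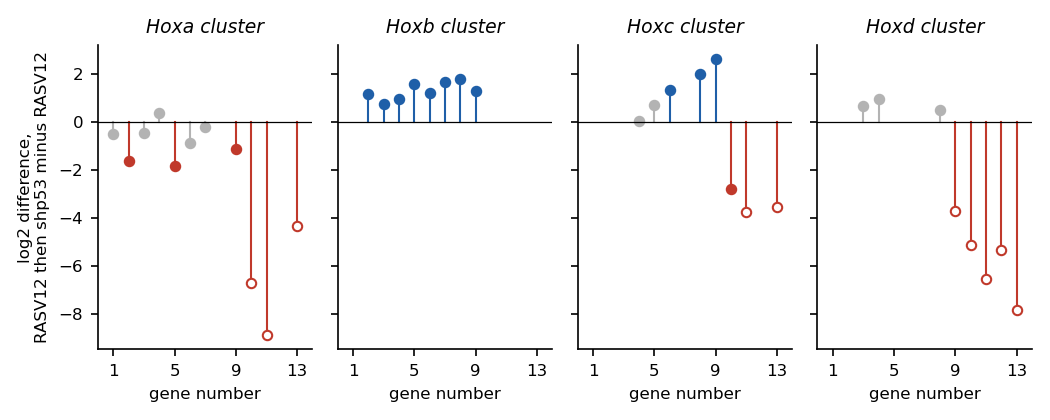
Difference (RASV12-then-shp53 minus RASV12, log2, vertical axis) of each tested Hox gene against its number in the HoxA, HoxB, HoxC and HoxD clusters. Blue genes were called higher, red lower and grey in neither direction, and open circles were above background on no RASV12-then-shp53 array; genes numbered 10 to 13 lie below 0 and the 8 HoxB genes above it.

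Prolactin family genes, which encode hormones of the placenta, include some with high signals in RASV12 cells. Of 22 genes in the list 19 are on the array. Of these, 11 passed the filter, all of them above background on the 3 RASV12 arrays, and 5 of the 11 were above background on no RASV12-then-shp53 array. Members that entered in this way had to be lower, so their number is not evidence on the family. Of the 8 that did not pass, 4 were above background on no array of either group. In a fit with no filter 13 of the 19 were called lower and the other 6 were not called. Among the 3 with probes above background on all 12 arrays, Prl2c5, Prl3b1 and Prl6a1, the differences were -7.78, -0.78 and -1.87. Prl2c5, a proliferin, went from 5.98, 6.14 and 5.99 to -2.85, -1.14 and -1.24, a 220-fold fall (-7.78 ± 0.63 (SE), adjusted p = 1.28e-05). Prl3d1, placental lactogen, went from 5.59, 4.25 and 5.75 to -5.24, -3.29 and -3.19, and Prl3d2 from 5.12, 3.79 and 5.20 to -7.45, -3.76 and -3.76. Their differences were -9.11 ± 0.53 and -9.70 ± 0.85, and these copies are near-identical, so their probes may read each other. Prl8a9 and Prl8a8 fell by at least 97.1-fold and 16.0-fold. Prl2c5 stood at 3.24, 5.49 and 5.67 in cells with shp53 first and at -4.12, -5.00 and -4.10 with shp53 alone, and the order difference was -6.54 ± 0.63 (adjusted p = 9.13e-05). Of 6 trophoblast markers tested, 4 rose and 2 fell, 66.7% and 33.3%, beside 17.6% and 20.9% of all genes. Their summed level was 24.3 to 36.5 in RASV12 cells and 45.7 to 82.4 in RASV12-then-shp53 cells. Hand1, Cdx2, Elf5 and Tpbpa did not pass the filter, and the part of such cells in the prolactin difference was not tested.

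The genes that rose furthest outside the chemokines included 2 steroid hormone receptors. Pgr, the progesterone receptor, was above background on no RASV12 array and stood at -1.02, -0.49 and -0.43 in RASV12-then-shp53 cells, at least 40.9-fold higher (adjusted p = 1.28e-04). Esr1, estrogen receptor alpha, stood at -2.14, -1.55 and -1.70 and was at least 17.9-fold higher (adjusted p = 2.63e-06). Greb1, an estrogen-induced cofactor of that receptor, went from -1.62, -1.67 and -1.63 to 2.07, 3.55 and 3.36, a 24.8-fold rise (4.63 ± 0.57 (SE), adjusted p = 1.93e-04). All 3 were also higher than in cells with shp53 first, by 6.32 ± 0.80, 2.52 ± 0.29 and 3.40 ± 0.57 (adjusted p = 5.12e-04, 2.53e-04 and 0.00279). Meox1, a homeobox factor of the somites, went from -2.28, -2.15 and -2.08 to 3.15, 3.11 and 3.23 (5.33 ± 0.16 (SE), adjusted p = 2.83e-08). Adcy8, an adenylate cyclase, Batf3, an AP-1 family factor, Fut9, a fucosyltransferase, and Pianp were above background on no RASV12 array and rose by at least 16.3-fold, 8.98-fold, 6.85-fold and 18.2-fold. Like Pgr and Esr1, they entered the test through another group, so these rises follow in part from that entry. Adcy8 was above background on all 3 arrays in RASV12-then-shp53 cells only. Lrrn1, a leucine-rich repeat membrane protein, rose 22.8-fold.

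Of the 12 genes that fell furthest, the chemokines, prolactins, Hoxa11, Mgp and Ccn5 are given above. Anxa8, an annexin, fell by at least 339-fold and Hp, the hemoglobin-binding acute phase protein haptoglobin, by at least 573-fold. S100b, a calcium-binding protein of glia and cartilage, stood at 1.60, 0.89 and 1.69 in RASV12 cells and fell by at least 167-fold. Stmn2, a tubulin-binding protein of neurons, and Fam181b fell by at least 168-fold and 123-fold. Of 7 neural and glial markers tested, S100b among them, 4 fell and none rose, 57.1% lower beside 20.9% of all genes. Their sum was 11.4 to 14.8 in RASV12 cells and 2.66 to 5.33 in RASV12-then-shp53 cells, the glial marker Sox10 was above background on all 6 arrays, and Gfap and Olig2 did not pass the filter. Of the 7, 3 were above background on no RASV12-then-shp53 array. Those 3 entered the test through another group, so falls among them follow in part from that entry. Of the 4 with a probe above background on all 12 arrays 3 fell. After normexp correction 1 of the list fell, and with the closer pairs averaged 2 did. The part of these markers in the result was not tested. Among 7 cartilage and bone markers, 1 fell and 1 rose, 14.3% each, beside 20.9% and 17.6% of all genes. Their sums were 42.5 to 67.8 in RASV12 cells and 6.72 to 10.1 in RASV12-then-shp53 cells. Spp1, the secreted matrix protein osteopontin, made up 98.6% of the sum on each RASV12 array and fell 7.09-fold (limma adjusted p = 7.04e-04). The other 6 summed to 0.606 to 0.976 and 0.764 to 1.32, and the groups overlapped.

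Of 21 cholesterol synthesis genes tested, 9 fell and 1 rose, 42.9% and 4.76%, beside 20.9% and 17.6% of all genes, with a median of -0.98. After normexp correction 4 fell, and with the closer pairs averaged 1 did. Mvk, mevalonate kinase, went from 2.68, 1.72 and 2.69 to 0.55, 0.67 and 0.46, a 3.49-fold fall (adjusted p = 9.88e-04). Cyp51 and Sc5d, enzymes of the later steps, fell 4.41-fold and 2.25-fold. Of 24 glycolysis and hypoxia genes, 5 fell and none rose, a share of 20.8% beside 20.9% of all genes. Car9, a carbonic anhydrase induced by low oxygen, fell 6.15-fold and Aldoa, aldolase, 1.69-fold. Without RASV12-then-shp53 replicate 1, 15 genes of this list were called lower, and without RASV12 replicate 1 or 3 or RASV12-then-shp53 replicate 2 or 3, 2 were. Of 17 NRF2 antioxidant genes 6 fell and 1 rose, 35.3% and 5.88%, beside 20.9% and 17.6% of all genes. With the closer pairs averaged 2 fell, after normexp correction 3 did, and 4 fell without RASV12 replicate 1 or 2 or RASV12-then-shp53 replicate 2. Hmox1, heme oxygenase 1, fell 3.06-fold, and the pentose phosphate enzymes Pgd and Taldo1 fell 2.45-fold and 2.32-fold.

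Of 21 lysosome genes tested, 6 fell and none rose, 28.6% beside 20.9% lower of all genes. With arrays scaled on their median 4 fell and 5 rose, so the balance of the list depends on the scaling, and after normexp correction none was called in either direction. Glb1 encodes the galactosidase behind the senescence stain. It went from 0.94, 1.25 and 1.03 to 0.72, 0.04 and 0.02 (-0.82 ± 0.22 (SE), adjusted p = 0.0160), and the call was lost without RASV12 replicate 2 or RASV12-then-shp53 replicate 2 or 3 (adjusted p = 0.0511, 0.0615 and 0.0627). Ctss, a cathepsin of immune cells, fell by at least 22.4-fold and moved with the macrophage markers, whose part in it was not tested. Ctsd, cathepsin D, fell 2.20-fold. The list's count was 3 without RASV12 replicate 2 or RASV12-then-shp53 replicate 2, and 2 without RASV12-then-shp53 replicate 3. Of 17 BCL2 family and caspase genes, 7 rose and 4 fell, 41.2% and 23.5%, beside 17.6% and 20.9% of all genes. After normexp correction 1 rose and 2 fell, and with median scaling 7 rose and 1 fell. Bcl2, which protects from apoptosis, rose 2.68-fold, from -1.45, -1.20 and -1.65 to 0.15, -0.12 and -0.07 (adjusted p = 1.50e-04), while its relative Bcl2l1 fell 1.76-fold. Bax, the pore former and p53 target, fell by 0.51 ± 0.12 (adjusted p = 0.00820). The count of higher genes was 3 without RASV12 replicate 1 and 4 without RASV12 replicate 3 or RASV12-then-shp53 replicate 3.

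Between RASV12-then-shp53 cells and cells with shp53 first, 15.5% of all genes differed at an adjusted p under 0.05, and 28.5% of the 5368 genes called against RASV12 cells did. Of the 149 genes named with values 58 did, or 38.9%. Most of these were named for their difference from RASV12 cells, and both comparisons use the RASV12-then-shp53 arrays, so nothing is read from this share. Both orders carried the same 2 vectors, and both groups had the Y-linked transcripts. Whether the 2 groups shared embryos is not given, so order and source of the cells cannot be told apart. Between the orders the Trp53 level was not called different (-0.38 ± 0.19, limma adjusted p = 0.237), nor were those of Cdkn1a (adjusted p = 0.0871), Ccnb1 (adjusted p = 0.638) or Mki67 (adjusted p = 0.899). Among those that passed were Hoxa11, Bmp4, Pgr, Il6, Cxcl1 and Prl2c5.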

How the data were processed

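RNA of 12 fibroblast samples was hybridised to 1-colour Agilent arrays, with 3 samples in each of 4 groups. The spot intensities were background-subtracted and detrended by Agilent Feature Extraction before they were deposited, in version 11.5.1.1 per the file headers and 10.7.3.1 per the submitters' processing notes. A table of log2 values for 25916 probes came from the authors as well. Its scale and centring are not stated, and its columns, with medians from -0.01 to 0.17, correlated at 0.990 or more with the scaled values below minus the shp53 median. The flags for background, outliers and saturation were read as deposited per the file headers.

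Here log2 processed signals were expressed against the 75th percentile of the array's 43020 non-control spots. Outlier spots were left out, which was 0.33% of values, no spot was saturated, and spots of a probe were averaged. Genes were named through RefSeq accessions for 28330 of 39429 probes, and 11099 probes stayed without a name. A probe was kept if any 1 of the 4 groups had it above background on each of its 3 arrays, so a gene could enter through the group in which it is high. Of several kept probes of a gene, the one with the highest mean was used, and the mean of a gene's probes changed the call of 1 named gene. Of 21367 named genes, 868 on X or Y were left out. limma 3.58.1 in R 4.3.3 fitted all 12 arrays with 1 mean per group and moderated the variances (eBayes), and p-values were adjusted by Benjamini-Hochberg over 13938 genes. For 60 genes an array had no value, and the fit used the others. A call is an adjusted p under 0.05. Where no array of a group was well above background, the fold is a bound. It sets the bright group's mean against the dim group's mean of, per array, the higher of the lowest signal among probes well above background and the probe's own. Log2 differences and their standard errors were fitted to the signals as they were, with no such bound. The scripts were tested on simulated data.

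The gene lists and the comparison were chosen with earlier results of these data known. Named genes were the 12 highest and 12 lowest called genes whose groups do not overlap, clone and locus names left out, up to 5 members of each list by smallest adjusted p (8 for p53 targets, mitosis, secretome and prolactin), and a fixed set around p53, RAS and senescence. Some genes that the rule names are not reported here. Ccnb2, Mcm6, Hoxc9 and Hoxd13 were chosen after their values were seen. Group means with 3 arrays each limit the precision, and an exact permutation test of 3 against 3 cannot go below p = 0.1. Normexp correction used the median signals. The alternatives covered background correction, scaling, probe filter and choice, the deposited table, the replicate block, arrays left out, the averaging of closely alike arrays, and thresholds.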

Additional observations from a re-analysis of the deposited data

Results flagged for a closer look

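Transcripts of the Y chromosome, which were left out of the tests, were present on all 3 RASV12-then-shp53 arrays and above background on no RASV12 array. The lower bounds on their fold were 41.9 for Ddx3y, 138 for Eif2s3y and 4.14 for Uty. The labels do not say from which embryos the cells of a group came.

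For Hoxc9 and Tnfaip3 the differences from RASV12 cells went in opposite directions in the 2 groups that carried both vectors. The limma test of the difference between the orders gave 4.00 ± 0.25 (SE, adjusted p = 3.70e-06) for Hoxc9, which was higher than in RASV12 cells where RASV12 came first (2.60) and lower where shp53 came first (-1.40). For Tnfaip3 it gave 1.31 ± 0.16 (SE, adjusted p = 4.05e-04), with 0.72 where RASV12 came first and -0.59 where shp53 came first. Both differences share the RASV12 arrays. Both groups with 2 vectors had the Y-linked transcripts and RASV12 cells did not, so these differences cannot be told apart from differences between embryos.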

How the results depend on the processing

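Against the 5368 calls (2449 higher, 2919 lower), normexp correction gave 783 (290 and 493), of which 779 were also among the 5368. The count was 1393 with the closest pair of each group averaged (475 and 918), 3200 at an adjusted p under 0.01 (1337 and 1863), and 2812 at 2-fold or more (1085 and 1727). Median scaling left 1847 lower calls, and quantile scaling gave 5307 calls, 52.1% of them higher. The authors' deposited log2 table gave 5380. Leaving out 1 array gave 3960 to 6009 calls, 1732 to 2693 higher and 2228 to 3316 lower. Same-numbered arrays shared a slide in all 4 groups. Their deviations correlated at -0.17, -0.16 and 0.26 in the 2 groups, so the numbers were not taken to pair the samples, and the replicate block is also the slide block. It gave 5477 calls over all 12 arrays, and 3171 (1217 higher) in a fit of the 2 groups alone, where 4569 were made without it. Within a slide each group had 1 array, which allows no test. Of the 149 genes named with values, 61 kept their side of the threshold and their direction under every alternative that gave a value, and 82 lost a call under at least 1. Normexp correction cost 63 calls and the averaging of closest pairs 55, and no other alternative cost more than 16. Tyrobp and Zeb1 changed sign under normexp correction, with differences of 0.013 and -0.073. The cause was not tested. Genes near background carry bounds only, and 3 arrays a group limit the precision.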

Other observations

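Stem cell associated genes were lower more often than higher in RASV12-then-shp53 cells, with 8 of 18 tested fallen and 2 risen, beside 20.9% and 17.6% of all genes. Aldh1a1, a retinaldehyde dehydrogenase, went from 0.85, -0.83 and 1.02 in RASV12 cells to -5.43, -5.89 and -5.47, a 61.5-fold fall (-5.94 ± 0.65 (SE), adjusted p = 9.00e-05, limma). Ly6a, the surface antigen Sca-1, fell 14.2-fold, from 2.93, 4.32 and 2.99 to 1.21, -1.27 and -1.19 (limma adjusted p = 0.00572). Cd24a, a surface glycoprotein, fell 5.77-fold and the reprogramming factor Klf4 1.94-fold. In each of these genes every RASV12-then-shp53 array lay below every RASV12 array. After normexp correction 3 of the list fell, with the closer pairs averaged 4, and of the 13 with a probe above background on all 12 arrays 6. The number called lower was 5 without RASV12-then-shp53 replicate 2 or 3.

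Of 16 contractile genes tested 5 fell and none rose, 31.3% lower beside 20.9% of all genes, with 3 fallen without RASV12 replicate 1 or RASV12-then-shp53 replicate 2 and 2 without RASV12-then-shp53 replicate 3. After normexp correction none was called, and of the 12 with a probe above background on all 12 arrays 2 fell. Of 21 genes of amino acid and ER stress, 3 rose and 2 fell, 14.3% and 9.52%, both below the shares of all genes, while at most 1 fell when any array of the 2 groups was left out.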
